A study of Homo sapiens with 89 samples.

Results

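The genes described here encode the SR proteins and the heterogeneous nuclear ribonucleoproteins (hnRNPs), measured by RNA sequencing in human neuroblastoma cell lines. They were chosen by symbol: every gene in both count tables whose symbol starts with SRSF or HNRNP, without pseudogenes, SRPK kinases and antisense genes. Of 174 such rows, 136 were pseudogenes and 2 were antisense genes, which left 36 genes, 11 SRSF and 25 HNRNP, of 57905 in the tables. They lie on 17 chromosomes. SRSF8, HNRNPCL2 and HNRNPCL3 had no row under their gene identifiers and were not analysed here.

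The series asks how MYCN, a MYC family transcription factor, acts with the nuclear RNA exosome, the complex that degrades and trims nuclear RNA from its 3' end. Polyadenylated RNA was sequenced from 5 groups of 3 libraries each. IMR-32 is a MYCN-amplified neuroblastoma line, and SHEP a line without that amplification that shows mesenchymal features. The IMR-32 cells carry a doxycycline-inducible shRNA against EXOSC10, a catalytic exosome subunit. The control group had no doxycycline, with EtOH, a solvent, in its column names, and the depleted group had 1 µg/ml doxycycline. The shRNA and the drug therefore cannot be told apart. SHEP cells formed 3 groups: a group labelled no MYCN, without doxycycline, and groups labelled wild type MYCN and MYCN 3A, both with 1 µg/ml doxycycline. MYCN 3A is, per the labels, a form with 3 mutations that no longer binds RNA well, and both forms are doxycycline-inducible. MYCN form and drug can therefore be told apart only between the wild type and 3A groups. The labels do not say whether libraries came from separate cultures, so p-values measure the spread between these libraries, which may be technical. In such bulk samples, fewer cells of a type and less RNA per cell cannot be told apart.

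SR proteins bind exonic sequences through RNA recognition motifs and recruit the splicing machinery through domains rich in arginine and serine. Many hnRNPs coat nascent RNA, and several oppose SR proteins by silencing exons, while others act in RNA export, stability and nuclear architecture. Several SR protein and hnRNP genes control their own messages through alternative exons that lead to nonsense-mediated decay. Gene counts do not separate such isoforms. MYC proteins bind the E-box CACGTG at many promoters.

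The promoters of 4 HNRNP genes that were higher in the wild type MYCN libraries are shown, a pair with the E-box and a pair without it. Each is the 250 bases before the annotated start, 5′ to 3′ on the gene's strand, from RefSeq on GRCh38.p14, with any CACGTG in capitals. The positions are chr4:82373992-82374241 (minus strand) for HNRNPD, chr10:68331443-68331692 (plus strand) for HNRNPH3, chr1:244864544-244864793 (minus strand) for HNRNPU and chr1:23344285-23344534 (minus strand) for HNRNPR.
HNRNPD: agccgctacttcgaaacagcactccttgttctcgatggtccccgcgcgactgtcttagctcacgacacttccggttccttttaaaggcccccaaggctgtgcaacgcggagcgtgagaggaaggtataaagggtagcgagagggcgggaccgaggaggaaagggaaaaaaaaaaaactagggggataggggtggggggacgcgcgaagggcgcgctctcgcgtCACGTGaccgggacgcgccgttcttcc
HNRNPH3: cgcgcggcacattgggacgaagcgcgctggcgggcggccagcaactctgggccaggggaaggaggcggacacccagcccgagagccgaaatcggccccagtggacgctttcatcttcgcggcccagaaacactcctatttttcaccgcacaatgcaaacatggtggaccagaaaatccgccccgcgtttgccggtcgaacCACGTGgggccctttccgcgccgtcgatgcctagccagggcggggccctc
HNRNPU: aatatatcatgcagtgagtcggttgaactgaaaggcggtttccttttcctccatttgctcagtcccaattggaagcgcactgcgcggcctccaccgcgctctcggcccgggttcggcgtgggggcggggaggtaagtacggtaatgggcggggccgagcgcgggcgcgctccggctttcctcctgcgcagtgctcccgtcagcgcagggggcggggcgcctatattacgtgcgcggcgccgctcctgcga
HNRNPR: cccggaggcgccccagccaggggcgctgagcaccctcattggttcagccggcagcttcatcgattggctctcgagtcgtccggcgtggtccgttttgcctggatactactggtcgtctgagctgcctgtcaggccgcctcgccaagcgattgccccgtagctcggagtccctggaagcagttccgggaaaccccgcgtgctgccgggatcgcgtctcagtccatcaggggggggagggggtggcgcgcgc
In HNRNPD the E-box began 27 bases before the start, and in HNRNPH3 50 bases before it. HNRNPH3 has 3 windows for different starts, and only the one shown held CACGTG. The HNRNPU and HNRNPR windows held no CACGTG, which says only that these letters are absent there.

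Promoter windows reaching from 250 bases before to 50 after the start were found for 33 of the 36 genes, and SRSF2, HNRNPA1 and HNRNPA1L3 had none. CACGTG reads the same on both strands, so a single search covers both. It was present in 7 of 23 HNRNP genes (30.4%) and 0 of 10 SRSF genes, against 2396 of 27305 genes (8.77%) in the whole table. The 7 were HNRNPA3, HNRNPD, HNRNPDL, HNRNPH2, HNRNPH3, HNRNPM and HNRNPUL1. Of these, HNRNPD, HNRNPH3 and HNRNPUL1 were called higher with wild type MYCN against no MYCN, and the others were not called. HNRNPAB, HNRNPL, HNRNPR, HNRNPU and HNRNPUL2 were called higher there and held no CACGTG in any window. HNRNPDL held CACGTG in both of its windows and HNRNPH2 held 2 copies in 1 window. HNRNPH3 and HNRNPUL1 each held it in only 1 of their several windows, and in HNRNPUL1 it began 23 bases after the start. Genes with several starts have several windows, so the share was also taken per window: 8 of 46 windows (17.4%) against 2548 of 35116 (7.26%). A match describes the sequence and is no measure of binding.

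The label checks gave a clear answer in IMR-32 and none in SHEP. EXOSC10 measured 74.6, 64.0 and 67.1 CPM (counts relative to library size, scaled by TMM) in control and 49.0, 46.7 and 46.1 after depletion, a fall of 31.1% (edgeR adjusted p = 2.27e-08). MYCN also fell there, from 1097 ± 15.3 to 599 ± 5.47 CPM (SD, n = 3; log2 fold change -0.87, edgeR adjusted p = 7.53e-30). In SHEP the MYCN row held 4, 0 and 0 counts in the no MYCN group, 2, 0 and 0 in the wild type group and 10, 0 and 0 in the 3A group, so it does not check those labels, and groups are named here as labelled. EXOSC10 itself was lower with 3A than without MYCN in SHEP (log2 fold change -0.40, edgeR adjusted p = 0.00954). Summed adrenergic marker levels fell from 3644–3875 to 2186–2268 TPM (counts per exon length, relative to the library) in IMR-32 with depletion, while mesenchymal markers moved from 261.5–270 to 352.3–364. In SHEP the mesenchymal sum was 3520–3733 TPM without MYCN, 4066–4374 with wild type MYCN and 3046–3162 with 3A. Single markers did not all follow these sums. In SHEP VIM, most of that sum, had means of 2556, 3136 and 2408 TPM in the same order of groups. COL1A1 had 473, 130 and 228 TPM there, and FN1 96.3, 60.6 and 43.2. In IMR-32 FN1 fell with depletion from a mean of 30.4 to 25.5 TPM, and the adrenergic marker TH rose from 0.82 to 2.68. The part of these markers in the results was not tested. Wild type MYCN replicate 1 stood apart from its group: a chi-square of counts over genes per degree of freedom was 17.9 and 9.53 against replicates 3 and 2, and 5.26 between those. Pairs in the other groups gave 3.96 to 12.2. Without it 3458 genes in place of 3315 were called for wild type against no MYCN, with 6 HNRNP and 3 SRSF genes higher. Libraries held 16394148 to 26193478 counts in IMR-32 and 11638859 to 15353505 in SHEP.

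Fold changes in SHEP moved with gene length. Over 7587 genes above 20 CPM, the log2 fold change of 3A against no MYCN had a Spearman rho of -0.48 with exon length. The median went from 0.26 in the shortest of 5 length bins, of near-equal gene number, to -0.19 in the longest. Between wild type MYCN and 3A rho was 0.43, and for wild type against no MYCN it was -0.02. In IMR-32 rho was 0.18 over 8409 genes. Members span 1108 to 10277 exon bases, so counts of members and list genes in the comparisons that involve 3A are also given with this trend removed. That fit was chosen after seeing the data, and the origin of the trend was not tested.

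**Figure D1:**
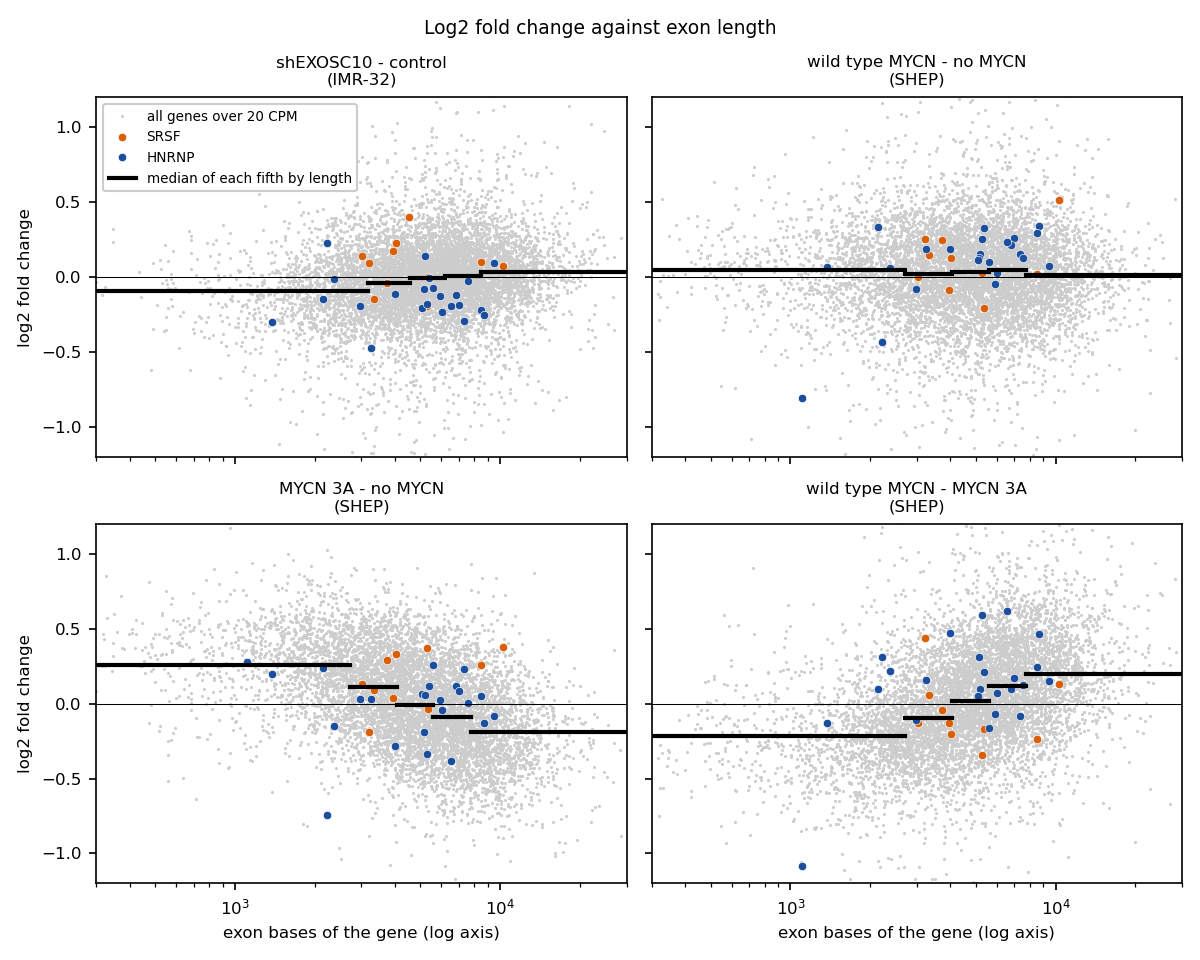
Log2 fold change against exon bases (log axis) for genes above 20 CPM (grey), SRSF genes (orange) and HNRNP genes (blue, of any level). Black bars show the median of each of 5 length bins of near-equal gene number. The medians fall from 0.26 to -0.19 for MYCN 3A against no MYCN and rise from -0.22 to 0.20 for wild type MYCN against 3A, and points beyond the vertical range of 1.2 are not drawn.

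Levels are compared between genes as CPM per kilobase of exon. In control IMR-32 cells the highest were SRSF2 at 199 ± 6.62 and HNRNPA1 at 196 ± 6.28 (SD, n = 3), a pair whose means differed by less than their spread. SRSF2 and SRSF1 activate exons through enhancers, and HNRNPA1 is the classic partner of exonic silencers. SRSF1 followed at 178 ± 1.52, then HNRNPA2B1 at 154 ± 6.49 and HNRNPH1, a reader of G-rich sequences, at 112 ± 6.86. In SHEP cells without MYCN the order was SRSF2 (222 ± 10.5), HNRNPA1 (220.5 ± 5.05) and HNRNPA2B1 (219 ± 1.76), again within their spread of each other. HNRNPAB (193 ± 7.04) and SRSF1 (158 ± 7.18) came next.

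Some members differed between the lines by far more than their spread. Cell line and experiment cannot be told apart there, so the folds are descriptions. In SHEP without MYCN, SRSF3, an SR protein that also serves as an mRNA export adaptor, was 2.94-fold above control IMR-32. SRSF9 was 2.79-fold higher, and HNRNPC, which binds U-tracts, 2.61-fold higher. In the other direction, SRSF11 stood 3.00-fold higher in IMR-32, HNRNPH1 1.96-fold and SRSF5 1.65-fold. Among genes of low or uncertain counts, SRSF10 was 2.46-fold and HNRNPA1L2 2.12-fold higher in IMR-32. The largest fold was that of HNRNPA1L3, 11.5-fold higher in SHEP. HNRNPA1L2 and HNRNPA1L3 are near-identical copies of HNRNPA1, so their values are uncertain. SRSF12 had a level of 2.52 ± 0.143 CPM per kilobase in IMR-32 and 0 counts in all 9 SHEP libraries. At the low end, SRSF10 and HNRNPH2 were each at 1.26 or below in both of these groups. HNRNPCL1 and HNRNPCL4 had 0 counts in all IMR-32 libraries.

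**Figure D2:**
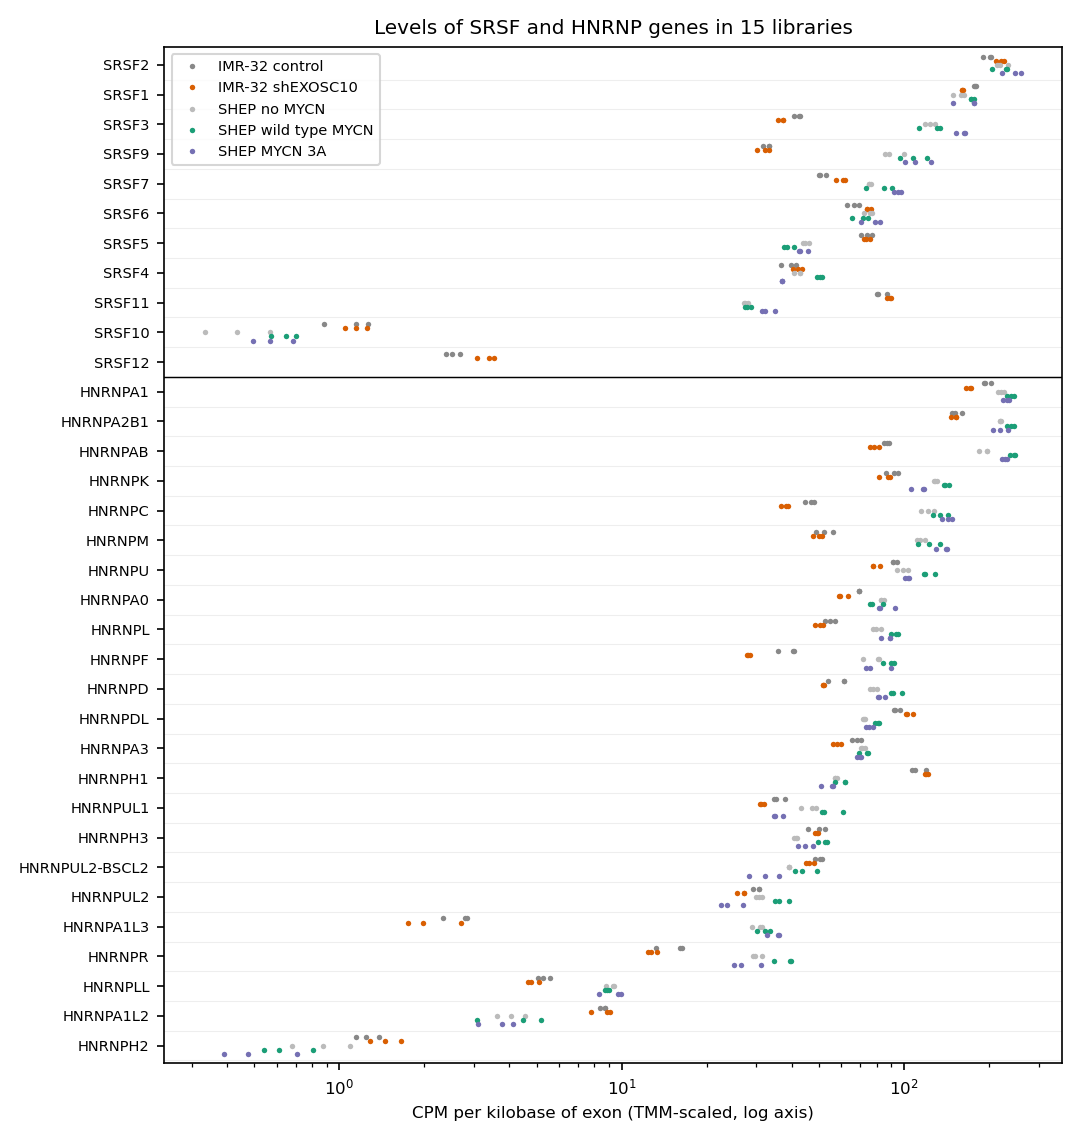
CPM per kilobase of exon (TMM-scaled, log axis) of SRSF genes (top) and HNRNP genes (bottom) in each of the 15 libraries, coloured by group; zeros, HNRNPCL1 and HNRNPCL4 are not drawn. SRSF2 and HNRNPA1 head their families at 196 to 222 in both unperturbed groups, and SRSF12 has points in IMR-32 only.

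With EXOSC10 depletion in IMR-32 many hnRNP messages were lower, by modest amounts. Of 23 HNRNP genes tested, 12 fell and 1 rose, and of 11 SRSF genes 4 rose and 2 fell (edgeR adjusted p under 0.05). Among all 17103 genes tested, 27.1% were called, 13.5% higher and 13.7% lower. The median log2 fold change was -0.15 over the HNRNP genes and 0.09 over the SRSF genes, against -0.00 over all genes. The 3 libraries of each group did not overlap for 20 of the 34 members tested, against 38.4% of all genes.

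HNRNPF, an F/H family protein that binds G-runs beside exons, fell most among those called. It measured 117, 132 and 132 CPM in control and 90.5, 92.5 and 91.1 after depletion. Every depleted library was below every control library, and the log2 fold change was -0.47 (SE 0.0609, edgeR adjusted p = 1.58e-09). Of its relatives, HNRNPH1 and HNRNPH3 had log2 fold changes of 0.10 and -0.01 and were not called (edgeR adjusted p = 0.064 and 0.943).

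HNRNPC held 342, 350 and 327 CPM in control against 269, 285 and 280 after depletion, a fall of 18.2% (SE of the log2 fold change 0.0461, edgeR adjusted p = 4.76e-07). The groups were well apart.

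In the A/B and D family, which includes splicing silencers and the AU-rich element binder HNRNPD (AUF1), 5 of 9 genes fell and HNRNPDL rose. HNRNPA1 had 976, 1034 and 982 CPM in control and 841, 879 and 873 after depletion (log2 fold change -0.21, SE 0.0396, edgeR adjusted p = 2.22e-05). HNRNPA3 had 395, 410 and 426 CPM against 350, 360 and 339, a fall of 14.8% (edgeR adjusted p = 3.02e-05). For both, the lowest control library was above the highest depleted one. HNRNPA0 fell by 12.6%, HNRNPD by 11.9% and HNRNPAB by 9.62%. HNRNPA2B1 was not called (log2 fold change -0.03, SE 0.0392, edgeR adjusted p = 0.692).

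The U family has HNRNPU, the scaffold attachment factor A that links RNA to chromatin, and its relatives HNRNPUL1 and HNRNPUL2, known from the DNA damage response. On hg19 they lie at chr1:245014468-245027844, chr19:41768401-41813503 and chr11:62480102-62494821, and counts cover all their exons. All 3 fell with EXOSC10 depletion. HNRNPU had 774, 804 and 779 CPM in control and 661, 658 and 700 after depletion (log2 fold change -0.22, SE 0.0407, edgeR adjusted p = 1.01e-05). HNRNPUL1 went from 247, 226 and 231 CPM to 203, 204 and 208, a fall of 12.6% (edgeR adjusted p = 0.00148). HNRNPUL2 went from 162, 163 and 155 to 136, 144 and 144, a fall of 11.8% (edgeR adjusted p = 0.00759). In none of the 3 did the groups overlap. HNRNPR, a relative of SYNCRIP that is found in neuronal RNA granules, had 115, 142 and 139 CPM against 107, 115 and 110. It was called (log2 fold change -0.25, edgeR adjusted p = 0.00112) although its groups overlapped at 115 CPM.

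SR protein genes were divided. SRSF7, an export adaptor like SRSF3, rose from 202, 214 and 204 CPM to 232, 249 and 245 (log2 fold change 0.23, SE 0.0493, edgeR adjusted p = 0.000166). SRSF3 moved the other way, from 215, 223 and 227 CPM to 189, 197 and 196, a fall of 12.6% (edgeR adjusted p = 0.00165). The groups of each were apart. SRSF6 rose by 12.9%, SRSF2 by 10.4% and SRSF12 by 31.8%, and SRSF1 fell by 9.77%. Leaving out depleted replicate 2 left 2 SRSF genes higher and 2 lower. The calls of HNRNPAB, HNRNPDL, HNRNPL, HNRNPUL2, SRSF2 and SRSF12 depended on single libraries (edgeR adjusted p = 0.05 to 0.189). HNRNPAB lost its call without control replicate 2 or depleted replicate 1 or 3, HNRNPL without control replicate 2 or depleted replicate 1 or 2, and SRSF12 without replicate 2 or 3 of either group. SRSF2 lost it without control replicate 1 or depleted replicate 2, HNRNPDL without depleted replicate 2 and HNRNPUL2 without depleted replicate 1. HNRNPAB was also lost with the length trend removed (edgeR adjusted p = 0.397), and both HNRNPAB and HNRNPL with library totals (edgeR adjusted p = 0.0749 and 0.104) and without a filter (edgeR adjusted p = 0.058 and 0.0842).

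**Figure D3:**
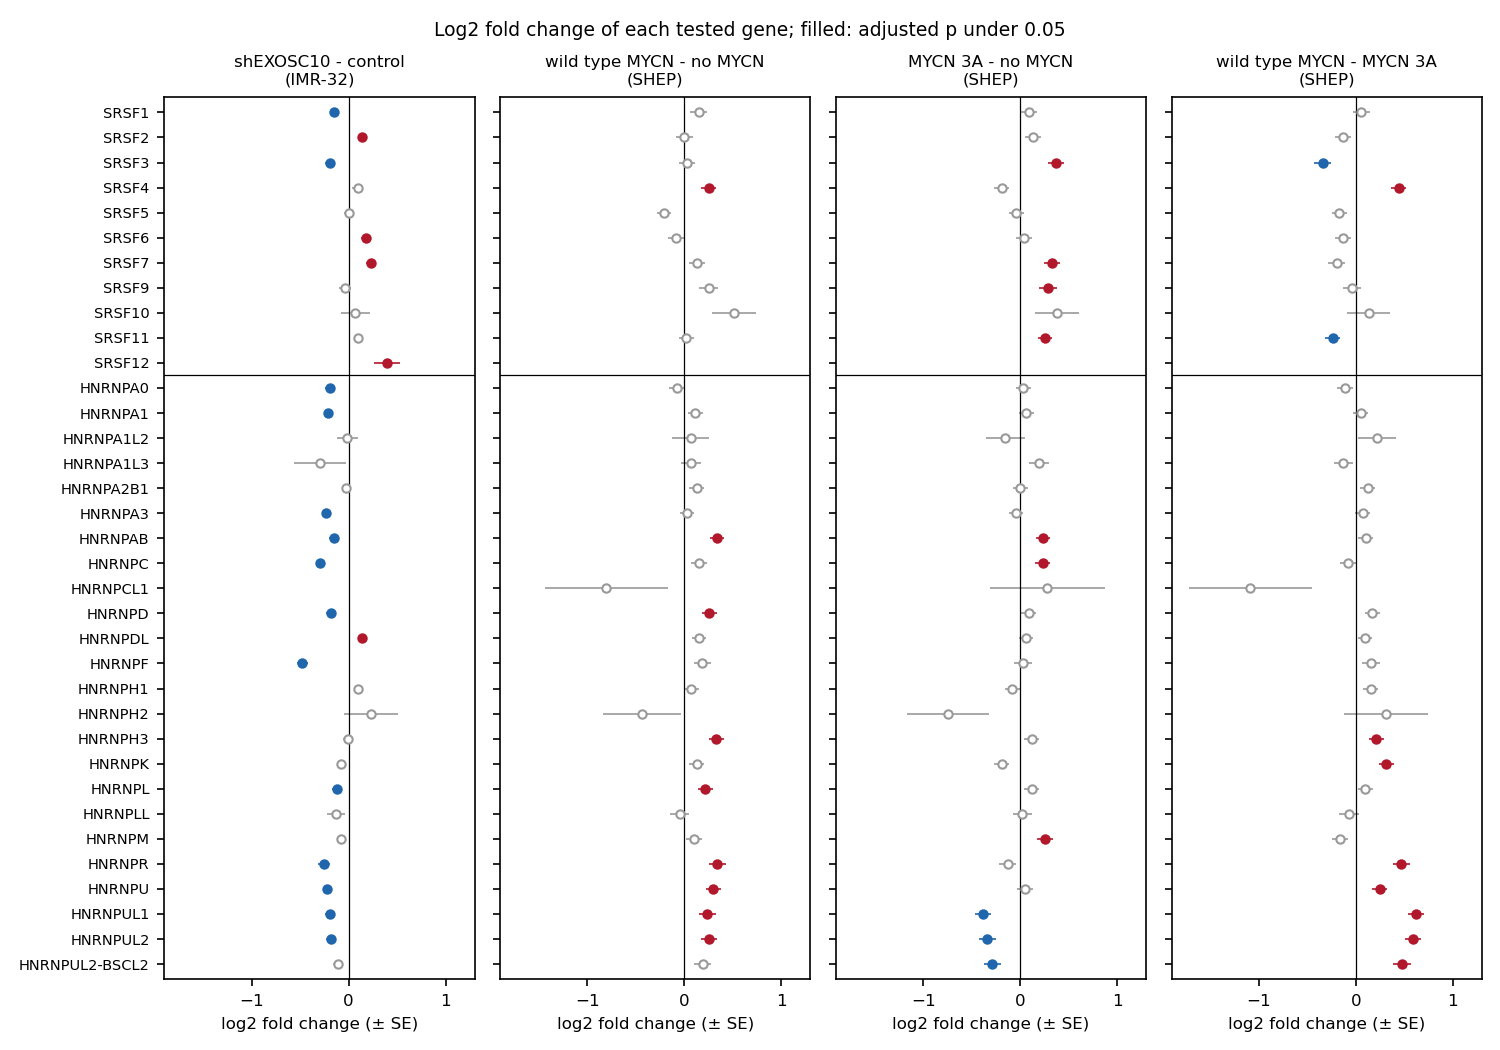
Log2 fold change (horizontal axis, bars show SE) of each tested SRSF and HNRNP gene in the 4 comparisons; filled points are called higher (red) or lower (blue) at an edgeR adjusted p under 0.05. EXOSC10 depletion shows 12 HNRNP genes lower and 1 higher, wild type MYCN 8 HNRNP genes higher, and the U family sits on opposite sides for wild type MYCN and 3A except HNRNPU.

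With wild type MYCN in SHEP, 8 of 24 HNRNP genes and 1 of 10 SRSF genes rose. None of the 34 was lower by edgeR, while 1 was lower at an unadjusted p under 0.05 and 1 by DESeq2, SRSF5 (log2 fold change -0.21, edgeR adjusted p = 0.0532). Over all 14923 genes 22.2% were called, 10.9% higher and 11.3% lower. The median log2 fold change of the members was 0.13, against -0.00 for all genes. The 3 libraries of each group did not overlap for 18 of the 34, against 37.5% of all genes.

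HNRNPR rose most among those called, from 272, 257 and 254 CPM to 345, 344 and 300 (log2 fold change 0.34, SE 0.0884, edgeR adjusted p = 0.00731). HNRNPAB, also known as CArG-box binding factor A, had 396, 423 and 420 CPM without MYCN and 509, 525 and 531 with it, a rise of 26.3% (edgeR adjusted p = 0.00228). HNRNPH3 went from 223, 223 and 219 CPM to 267, 283 and 285, a rise of 25.6% (edgeR adjusted p = 0.00334). In each the wild type libraries were all above the others.

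HNRNPU measured 878, 844 and 803 CPM without MYCN and 1093, 998 and 1011 with the wild type (log2 fold change 0.30, SE 0.0785, edgeR adjusted p = 0.00802). HNRNPUL1 had 318, 309 and 283 CPM against 399, 341 and 333 (log2 fold change 0.24, edgeR adjusted p = 0.0474), and HNRNPUL2 had 167, 159 and 162 against 206, 184 and 191 (log2 fold change 0.25, edgeR adjusted p = 0.0328). All 3 U family genes were thus higher in every wild type library, with wild type replicate 1 highest each time.

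HNRNPD went from 527, 543 and 559 CPM to 628, 637 and 685 (log2 fold change 0.26, edgeR adjusted p = 0.0178). HNRNPL, a CA-repeat binder, went from 530, 543 and 566 CPM to 616, 647 and 639 (log2 fold change 0.21, edgeR adjusted p = 0.0471). SRSF4, an SR protein with a long arginine-serine domain, was the SRSF gene that rose, from 137, 131 and 137 CPM to 157, 164 and 162 (log2 fold change 0.25, SE 0.0771, edgeR adjusted p = 0.0207). None of these groups overlapped.

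These calls were sensitive to single libraries. HNRNPAB, HNRNPH3 and HNRNPR stayed called whichever library was left out. HNRNPU was lost without no MYCN replicate 3 (edgeR adjusted p = 0.0575). HNRNPD, HNRNPL, HNRNPUL1, HNRNPUL2 and SRSF4 were lost more often, with an edgeR adjusted p from 0.0518 to 0.211. Leaving out any 1 of the no MYCN libraries cost HNRNPUL2 and SRSF4 their calls, as did leaving out wild type replicate 1 for HNRNPUL2 and wild type replicate 2 for SRSF4. When 1 library was left out, HNRNPL held only without wild type replicate 1 and HNRNPUL1 only without wild type replicate 3. The libraries that cost HNRNPD its call were no MYCN replicates 1 and 2 and wild type replicate 3. Scaling by library totals in place of TMM left 5 HNRNP genes higher and 0 SRSF genes higher, and HNRNPL, HNRNPUL1, HNRNPUL2 and SRSF4 were the calls lost.

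With MYCN 3A in SHEP, of 10 SRSF genes 4 rose and 0 fell by edgeR, where 1 was lower at an unadjusted p under 0.05 and 0 by DESeq2. Of 24 HNRNP genes 3 rose and 3 fell. Over all genes 25.5% were called, 12.7% higher and 12.8% lower. Called in either direction were 10 of the 34 members, near the share over all genes. The median log2 fold change was 0.19 over the SRSF genes and 0.03 over the HNRNP genes, against -0.04 over all genes. With library totals in place of TMM, which shifts the median of all genes to -0.14, the counts became 2 higher and 1 lower for SRSF and 0 higher and 4 lower for HNRNP. The groups did not overlap for 19 of the 34 members, against 41.3% of all genes.

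SRSF3 rose most among those called. Its libraries held 626, 654 and 679 CPM without MYCN and 809, 859 and 867 with 3A, well apart (log2 fold change 0.37, SE 0.0836, edgeR adjusted p = 0.00248). SRSF7 went from 310, 305 and 303 CPM to 372, 396 and 385 (log2 fold change 0.33, edgeR adjusted p = 0.00588). SRSF11, an SR-related protein that binds U2AF, went from 232, 238 and 230 CPM to 296, 266 and 273 (log2 fold change 0.26, edgeR adjusted p = 0.0173). SRSF9 rose by 22.2% (edgeR adjusted p = 0.0282). No 3A library of these 4 genes overlapped a library without MYCN. With the length trend removed SRSF3 was at 0.45 and SRSF7 at 0.33 on the log2 scale, both called.

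Among HNRNP genes, those lower with 3A were HNRNPUL1, HNRNPUL2 and the read-through gene that shares exons with HNRNPUL2. HNRNPUL1 had 228, 226 and 244 CPM with 3A against the 283 to 318 without MYCN (log2 fold change -0.38, SE 0.0853, edgeR adjusted p = 0.00232). HNRNPUL2 had 119, 125 and 142 CPM with 3A against 159 to 167 (log2 fold change -0.34, SE 0.0855, edgeR adjusted p = 0.0062). Both falls were called in all alternatives and with any 1 library left out. With the length trend removed they were -0.26 and -0.26 on the log2 scale, still called (edgeR adjusted p = 0.0135 and 0.02). HNRNPU had 854, 876 and 884 CPM with 3A, among the libraries without MYCN (log2 fold change 0.05, edgeR adjusted p = 0.684). With the length trend removed its log2 fold change was 0.24, and it was called higher (edgeR adjusted p = 0.0135).

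HNRNPAB had 489, 476 and 495 CPM with 3A (log2 fold change 0.24, edgeR adjusted p = 0.0248), which dropped to 0.08 without the length trend (edgeR adjusted p = 0.422). HNRNPC had 890, 843 and 931 CPM without MYCN and 1000, 1083 and 1045 with 3A (log2 fold change 0.23, edgeR adjusted p = 0.0382). HNRNPM, which binds GU-rich sites, rose by 19.7% (edgeR adjusted p = 0.0259). With the trend removed, 10 members were higher and 4 lower, and 9 of the 10 original calls were among them. By family these were 6 HNRNP genes higher and 3 lower, and 4 SRSF genes higher and 1 lower. HNRNPD, HNRNPH3, HNRNPL and HNRNPU were added as higher and SRSF4 as lower. HNRNPAB, HNRNPC, HNRNPM, SRSF9, SRSF11 and the read-through gene depended on single libraries (edgeR adjusted p = 0.0512 to 0.181). When 1 library was left out, HNRNPAB and HNRNPC were called only without 3A replicate 1, and the read-through gene only without 3A replicate 3. HNRNPM and SRSF9 lost their call without no MYCN replicate 1 or 2 or 3A replicate 2 or 3, and SRSF11 without any 1 of the no MYCN libraries or without 3A replicate 1.

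Set against each other, wild type MYCN and 3A both carried doxycycline. Here 7 of 24 HNRNP genes were higher with the wild type, and of 10 SRSF genes 1 was higher and 2 were lower. No HNRNP gene was lower by edgeR, at an unadjusted p under 0.05 or by DESeq2 (0 each). With the length trend removed, however, 6 HNRNP genes were higher and 2 lower, HNRNPC (-0.23, edgeR adjusted p = 0.0375) and HNRNPM (-0.24, edgeR adjusted p = 0.0262), and the HNRNP median was 0.05. The SRSF counts were then 1 higher and 3 lower. Over all genes 30.3% were called, 15.8% higher and 14.5% lower. Called in either direction were 10 of the 34 members, near the share over all genes. The read-through gene HNRNPUL2-BSCL2 is 1 of the 7 HNRNP genes that were higher. The median was 0.14 over the HNRNP genes and -0.13 over the SRSF genes, against 0.00 over all genes. The groups of 17 of the 34 members did not overlap, against 40.4% of all genes.

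HNRNPUL1 and HNRNPUL2 had the largest differences among those called, 0.62 (SE 0.0854, edgeR adjusted p = 1.37e-05) and 0.59 (SE 0.0855, edgeR adjusted p = 2.37e-05) on the log2 scale. The wild type libraries, at 333 to 399 and 184 to 206 CPM, were above every 3A library, at 226 to 244 and 119 to 142. HNRNPR, with 269, 229 and 217 CPM in the 3A libraries and at least 300.2 in the wild type ones, differed by 0.47 (edgeR adjusted p = 0.000398). HNRNPK, a C-rich RNA and DNA binder, had 745, 722 and 712 CPM with the wild type and 600.3, 605 and 547 with 3A, a difference of 0.31 (edgeR adjusted p = 0.00388). These stayed called with the length trend removed, at 0.49, 0.52, 0.28 and 0.26.

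SRSF4 had 118, 119 and 118 CPM with 3A, below its 3 wild type libraries and also below the 131 to 137 CPM without MYCN (difference between the forms 0.44, SE 0.0777, edgeR adjusted p = 0.000189). SRSF3 went the other way: the wild type libraries, at 596, 693 and 709 CPM, were all below the 3A libraries (difference -0.34, edgeR adjusted p = 0.0035). SRSF11 was lower with the wild type by 0.24 on the log2 scale, which is a fall of 15.1% (edgeR adjusted p = 0.0226), and lost its call without wild type replicate 2 or 3A replicate 1 (edgeR adjusted p = 0.0825 and 0.0871). HNRNPU was higher with the wild type by 0.25 (edgeR adjusted p = 0.0203), but 0.06 without the length trend (edgeR adjusted p = 0.525), and was lost without 3A replicate 1 or 2 (edgeR adjusted p = 0.0544 and 0.0602). HNRNPH3 was higher by 0.21 (edgeR adjusted p = 0.042), was 0.14 without the trend (edgeR adjusted p = 0.138), and was lost without replicate 2 or 3 of either form (edgeR adjusted p = 0.0852 to 0.135). With the trend removed 5 members were lower rather than 2, and the median over all members went from 0.10 to -0.00.

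**Figure D4:**
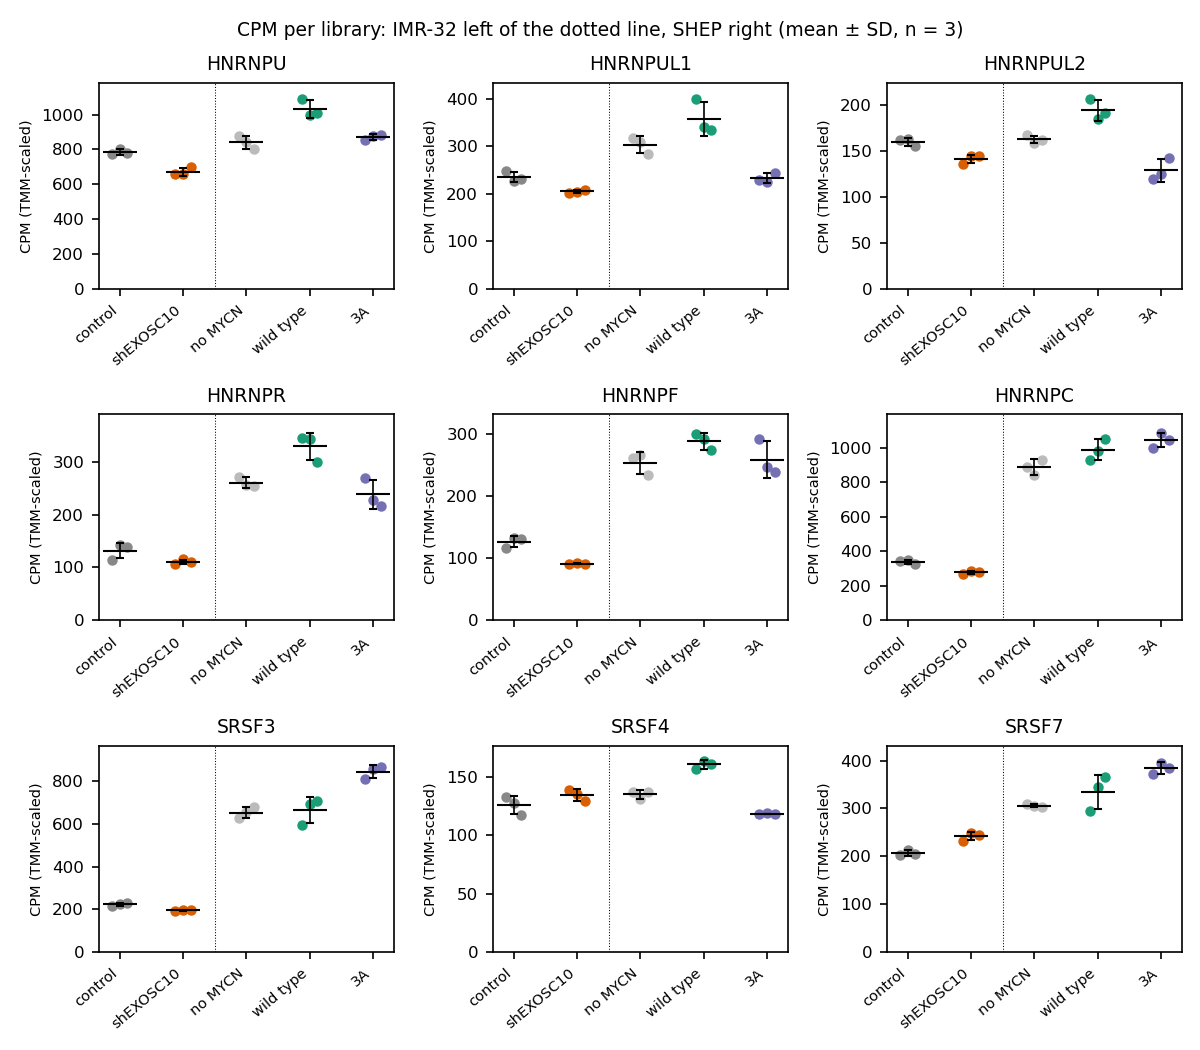
CPM (TMM-scaled, axis from 0) of 9 genes in each library, IMR-32 to the left of the dotted line and SHEP to the right, with a horizontal line for the mean and bars for SD (n = 3 per group). HNRNPUL1, HNRNPUL2 and SRSF4 show 3A libraries below and wild type libraries above those without MYCN, and SRSF3 and SRSF7 show 3A libraries above those without MYCN.

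The experiments in IMR-32 and SHEP share no library, so their calls can be set side by side. Of 33 members tested in both lines, 14 fell with EXOSC10 depletion and 9 rose with wild type MYCN, and 7 genes did both, 50% of the former and 77.8% of the latter. The 7 were HNRNPAB, HNRNPD, HNRNPL, HNRNPR, HNRNPU, HNRNPUL1 and HNRNPUL2. Among all 12952 genes tested in both, 353 did both, 17.5% of 2014 and 24.3% of 1454. Members were called more often in each direction alone, 14 and 9 of 33 against 2014 and 1454 of 12952. The shares of genes that did both do not allow for this, and overlap beyond these rates was not tested. MYCN itself fell in IMR-32 with depletion, as given above, and its part in these counts was not tested. With 3A, 3 of the 14 rose (HNRNPAB, HNRNPC and SRSF3), 21.4% against 25.4% of the 2014 genes over all, and 2 fell (HNRNPUL1 and HNRNPUL2), against 242 of the 2014. Both shares are near those over all genes. Of the 7 genes, only HNRNPR kept both calls in every alternative and whichever library was left out. With library totals or without a filter, HNRNPL lost both calls, HNRNPAB that of depletion and HNRNPUL1 that of wild type MYCN. HNRNPUL2 lost its wild type MYCN call with library totals, and HNRNPL and HNRNPUL1 theirs with the compared groups alone. HNRNPAB lost its depletion call with the length trend removed too. Leaving out single libraries cost HNRNPD, HNRNPL, HNRNPU, HNRNPUL1 and HNRNPUL2 their wild type MYCN calls. It cost HNRNPAB, HNRNPL and HNRNPUL2 their depletion calls.

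Summed over the HNRNP genes without the read-through gene, levels were 4209.97–4517 TPM in control and 4031–4085 in depleted IMR-32. In SHEP they were 5484–5645 without MYCN, 5766–6239 with wild type MYCN, where replicate 1 was highest, and 5003–5342 with 3A. None of these ranges overlapped within a line. The SRSF sums were 2387–2553 and 2513–2579 TPM in IMR-32, and 2543–2678, 2613–2652 and 2464–2843 in SHEP, and overlapped throughout. TPM divides by exon length, so the length trend with 3A acts on these sums too.

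Other splicing genes were read from lists of pathway members. Of all genes tested, 27.1% were called with EXOSC10 depletion and 22.2% with wild type MYCN. With 3A 25.5% were called, and between the forms 30.3%. Counts in either direction of hnRNP-like proteins in SHEP, and of SR-related proteins with either form against no MYCN, were near or below these. So were those of tri-snRNP proteins and of SR protein kinases with depletion, with wild type MYCN and between the forms. The count of nonsense-mediated decay and exon junction proteins with depletion was near its share too. Of 24 core snRNP proteins, which form the U1 and U2 particles and their Sm rings, 11 fell and 2 rose with EXOSC10 depletion. SNRPD2 (log2 fold change -0.44), SNRPB (-0.42) and SNRPE (-0.55) led by p. In SHEP 10 of the 24 rose and 0 fell with wild type MYCN, led by SF3A3 (0.53), SNRPD1 (0.55) and SNRPF (0.46). With 3A 15 rose and 1 fell, led by SNRPE (0.66), SNRPD1 (0.58) and SF3B5 (0.65). Between the forms 7 were higher and 10 lower with the wild type. With the length trend removed these counts were 9 lower and 2 higher for depletion, 14 and 14 higher for wild type MYCN and 3A, with 0 and 1 lower, and 5 higher and 9 lower between the forms.

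Of 20 SR-related proteins outside the SRSF symbols, 6 rose and 1 fell with EXOSC10 depletion, among them SREK1 (0.36) up and PNN (-0.32), an exon junction protein, down. With wild type MYCN 3 rose and 0 fell, including the SR-like regulator TRA2B (0.28), and with 3A 3 rose and 0 fell, including U2SURP (0.35). Between the forms 5 were higher and 2 lower. Length mattered here: with the trend removed 10 rose and 0 fell with 3A, and 2 were higher and 6 lower between the forms. SR protein kinases phosphorylate the arginine-serine domains: of 10 tested in IMR-32, CLK1 (0.40) and CLK4 (0.47) rose and 0 fell. Of 9 in SHEP, 2 rose with wild type MYCN, 1 rose and 2 fell with 3A, and 1 was higher with the wild type than with 3A. Removing the length trend turned these to 2 up and 1 down with 3A, and to 1 lower in place of 1 higher between the forms. CLK2, the kinase with the smallest p with 3A, fell there (-0.75).

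Of hnRNP-like proteins outside the HNRNP symbols, 5 rose and 5 fell of 27 with EXOSC10 depletion. MBNL2, a regulator of developmental splicing, rose by 2.11 on the log2 scale, and CELF1 (-0.61) and PCBP4 (-0.38) fell. In SHEP 4 rose and 1 fell of 24 with wild type MYCN, and 1 rose and 4 fell with 3A. Between the forms 5 were higher and 0 lower, led by MBNL1 (0.61) and PTBP1 (0.36), the polypyrimidine tract binder also called hnRNP I. With the length trend removed 6 rose and 2 fell with 3A, and 4 were higher and 2 lower between the forms. Neuronal splicing regulators were split in IMR-32, with 3 up and 5 down of 13 (RBFOX3 -0.67, SRRM4 -0.40, ELAVL3 -0.22). In SHEP 3 of these could be tested, and 1 fell with wild type MYCN and 2 with 3A, of which neither was called with the length trend removed. Of 24 tri-snRNP and catalytic proteins 5 fell and 0 rose with EXOSC10 depletion, 5 rose and 0 fell with wild type MYCN, 5 rose and 3 fell with 3A, and 4 were higher and 3 lower between the forms. The counts without the length trend were 4 up and 1 down with 3A, and 2 higher and 3 lower between the forms. Of 14 proteins of nonsense-mediated decay and the exon junction complex, 3 rose and 1 fell with depletion, 4 rose and 1 fell with each MYCN form, and 5 were higher and 2 lower between the forms. The trend-removed counts were 3 up with 3A, where the fall was lost, and 3 higher and 1 lower between the forms.

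Several of these list counts were 0 by edgeR. With wild type MYCN, 0 core snRNP and 0 tri-snRNP genes were lower at an unadjusted p under 0.05 or by DESeq2, while 2 SR-related genes and 3 kinases were lower at an unadjusted p under 0.05 and 0 by DESeq2. With 3A 1 SR-related gene was lower at an unadjusted p under 0.05 and 0 by DESeq2. For EXOSC10 depletion 0 tri-snRNP genes were higher and 0 kinases lower by either measure. Between the forms 1 hnRNP-like gene was lower at an unadjusted p under 0.05 and 0 by DESeq2, and 0 kinases were lower by either. Scaling by library totals turned the wild type MYCN counts of kinases to 0 up and 2 down, and those of SR-related genes to 2 up and 2 down. Core snRNP genes were then 7 up and 0 down with wild type MYCN, and 14 up and 4 down with 3A. For 3A, hnRNP-like genes became 0 up and 8 down, and tri-snRNP genes 2 up and 4 down.

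Some members could not be measured cleanly. Reads over shared exons were counted for each gene, and the read-through gene HNRNPUL2-BSCL2 shares 2356 exon bases with HNRNPUL2, 44.5% of HNRNPUL2 and 58.9% of its own length. Its values, 156, 157 and 156 CPM without MYCN, 196, 165 and 174 with the wild type and 113, 129 and 144 with 3A, followed the order of HNRNPUL2 and are no separate evidence. Without it 7 members were higher and 2 lower with 3A, and 7 and 2 between the forms. HNRNPA1L2 and HNRNPA1L3 are near-identical copies of HNRNPA1, and HNRNPA1 has many pseudogenes, so their values are uncertain. HNRNPA1L2 also shares 884 bases with MRPS31P4, and HNRNPH2 362 with a read-through gene. HNRNPCL1, HNRNPH2, HNRNPLL, HNRNPA1L2, HNRNPA1L3 and SRSF10 were called in none of the comparisons in which they were tested. HNRNPCL4, HNRNPCL1 in IMR-32 and SRSF12 in SHEP were not tested because of low counts.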

How the data were processed

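RNA-seq of polyadenylated RNA from 15 of the 89 samples of the series was used. The other 74 samples, of other assays, were not analysed here. The deposited values are raw counts per gene, made by the authors with STAR 2.7.10a and featureCounts 2.0.3 on hg19, per the submitters' processing notes. Per the file headers, the SHEP reads were counted by strand with a minimum overlap of 10 bases. The IMR-32 table states no settings. Antisense density at facing gene pairs was 0.431% of the sense density in IMR-32 and 0.0875% in SHEP. Even values made up 65.5 to 77.1% of counts from 1 to 10. Counting a fragment's 2 reads separately would give such an excess, and counts would then overstate the number of molecules. The cause was not tested.

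Tests used R 4.3.3, edgeR 4.0.16 (filterByExpr, TMM, robust quasi-likelihood F test, Benjamini-Hochberg adjusted p under 0.05 over all genes) and limma 3.58.1, with all 9 SHEP libraries in a single fit. In IMR-32 17103 genes were tested and in SHEP 14923, with 34 members in each. Alternatives were DESeq2 1.42.0, library totals, RLE factors, other filters, a replicate block, the compared groups alone, each library left out and, chosen after seeing the data, the exon length trend removed and the read-through gene left out. Scripts were tested on simulated data. Values per library are given for the 6 called members with the smallest adjusted p in each comparison and for members called in opposite directions in comparisons that share no library. Values per library of HNRNPK were added after they were seen. Up to 3 called genes with the smallest p are named of each pathway list. The members and lists were chosen with earlier results of these data known. Leukocyte, endothelial, epithelial and Schwann cell markers summed to at most 21.9, 0.54, 1.75 and 17.2 TPM in any library. Promoters came from RefSeq.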

Additional observations from a re-analysis of the deposited data

Results flagged for a closer look

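For 6 genes the effect of wild type MYCN against no MYCN differed from that of MYCN 3A against no MYCN, by a test of the difference itself, which is the contrast between the forms in edgeR, and the separate effects had opposite signs. The effects share the libraries without MYCN. Of all 14923 genes tested, 30.3% were called between the forms, and how many of them also had opposite signs was not counted. The read-through gene is no separate evidence from HNRNPUL2, and for HNRNPK neither separate effect was called. The differences on the log2 scale were 0.62 for HNRNPUL1, 0.59 for HNRNPUL2, 0.47 for the read-through gene HNRNPUL2-BSCL2, 0.47 for HNRNPR, 0.44 for SRSF4 and 0.31 for HNRNPK. All 6 differences were called in every alternative and with any 1 library left out. The opposite signs rest on the length trend for HNRNPR: its 3A effect was -0.13 (edgeR adjusted p = 0.305), and 0.06 with the trend removed (edgeR adjusted p = 0.62), so both effects were then positive. Of the separate effects, that of 3A was called for HNRNPUL1, HNRNPUL2 and HNRNPUL2-BSCL2 but not for HNRNPR, SRSF4 or HNRNPK, and that of the wild type was called for HNRNPUL1, HNRNPUL2, HNRNPR and SRSF4. With the trend removed the 3A effect of SRSF4 was called as well (-0.25, edgeR adjusted p = 0.0148). With groups of 3 libraries no single library was tested as an outlier.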

How the results depend on the processing

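No member changed direction with a call under any alternative. With library totals the members higher with wild type MYCN went from 9 to 5 and those lower from 0 to 1, and with 3A those higher went from 7 to 2 and those lower from 3 to 5. Of all called genes, 35.1% were then higher with wild type MYCN (49.3% with TMM) and 29.6% with 3A (49.7%). For wild type MYCN, 1 member was lower with DESeq2, with at least 1 CPM in 3 libraries, with the length trend removed, with the replicate block and with only the 2 groups compared. Between the forms, the members lower went from 2 to 1 without a filter or with only the 2 groups, and to 5 with the length trend removed. Same-numbered libraries correlated at r = 0.025 to 0.044 in IMR-32 and -0.033 to 0.138 in SHEP, and libraries of different number at -0.031 to -0.012 and -0.134 to 0.062. In IMR-32 every library correlated best with its own number, which hints at pairing, and in SHEP not every one did. No label ties the numbers and the values were low, so they were not taken as pairs. With the replicate block all called genes rose from 4639 to 5251 in IMR-32, and from 3315 to 4184, 3806 to 4794 and 4527 to 5414 in SHEP. The block gave 5 members lower with 3A and 5 lower between the forms. Leaving out 1 library gave 2 to 6 members higher and 11 to 15 lower for EXOSC10 depletion, 4 to 9 and 0 to 1 for wild type MYCN, 2 to 6 and 2 to 3 for 3A, and 6 to 8 and 1 to 4 between the forms. It also leaves fewer samples for the test. For 3A, all called genes fell from 3806 to 2166 and 2508 without no MYCN replicates 1 and 2. The count of 5 members higher with depletion fell to 2 without depleted replicate 2. That of 9 for the wild type fell to 4, 4 and 5 without no MYCN replicates 1, 2 and 3. For 3A, 7 fell to 2, 2 and 4 without these and to 3 without 3A replicate 2 or 3. Calls held in every alternative for 13 of 19, 3 of 9, 4 of 10 and 7 of 10 members in the 4 comparisons. Other causes of these shifts were not tested. Low counts gave SEs of up to 0.634 for HNRNPCL1, 0.431 for HNRNPH2 and 0.23 for SRSF10 on the log2 scale, which limits the changes that could be called there.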
